A study of Mus musculus with 6 samples.

Results

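Potassium channels are the pores through which K+ leaves or re-enters a cell, and the genes described here are those named as their subunits. They were chosen by symbol: every gene symbol made of Kcn, further letters and a number, except Kcnj1 and Kcnj10, which gave 95 of the 24422 genes in the count tables. Fold changes are given for the 60 of them with 60 or more reads summed over the 6 libraries. Of the other 35, 30 had at least 1 read and 5 had none. The list holds subunits that form the pore, auxiliary subunits that bind to a pore subunit and change how it opens or reaches the membrane, and 4 non-coding or antisense transcripts named after a channel gene.

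RNA came from whole kidneys of C57BL/6 mice at postnatal day 13, kept on a diet with 220 ppm iron. Libraries were made from 3 Control kidneys, labelled wild type, and 3 TfR1 knockout kidneys, where Six2Cre was used to delete a floxed Tfrc, the gene of transferrin receptor 1. Six2Cre acts in the progenitors that give rise to the nephron, from podocyte to distal tubule. The collecting duct, which derives from the ureteric bud, and the vessels and stroma lie outside that lineage, and the study describes tubule cells that escaped the deletion. The study's supplement describes its sequenced models as separate mice compared with littermate wild type controls. The labels do not tie littermates to replicate numbers or say whether these Controls carried the floxed gene.

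In the nephron, K+ channels set the voltage across the cell membrane, recycle the K+ that the sodium pump brings in, and secrete K+ into the urine. Inward rectifier (Kir) channels and 2-pore-domain (K2P) channels carry most of the resting K+ conductance. Voltage-gated (Kv) channels open on depolarization, and calcium- or sodium-activated channels open with the ion they are named for. Many Kv subunits are best known from nerve and muscle.

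The 95 genes together took 0.132% to 0.168% of the 16591156 to 22898008 counts per library. Tfrc itself had 5534, 6485 and 3667 normalized counts in Control and 6976, 4045 and 5898 in knockout libraries, where the groups overlapped, so this gene does not check the labels (log2 fold change 0.11, DESeq2 adjusted p 0.853). Normalized counts are read counts divided by a size factor for each library. Some libraries stood apart. A list of 12 adrenal genes, made after the data were seen, summed to 34180, 309.9 and 250.8 normalized counts in Control replicates 1 to 3 and to 172, 397.9 and 4541 in knockout replicates 1 to 3, with 4 of the 12 at 0 in at least 1 library. The 6 fibroblast markers, none at 0 in any library, summed to 133300 in Control replicate 3 against 67100 and 64340 in the other Control libraries and 31870 to 63750 in the knockout. Knockout replicate 2 was more than 2-fold below every other library for 11 of the 60 channel genes (18.3%) and for 4.33% of all genes with 60 or more reads.

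Most channel genes did not pass the test, and those that passed were mainly lower in the knockout. At an adjusted p under 0.05, 11 of the 60 genes passed (18.3%), where 14.9% of all 16509 genes tested and 15.8% of the 15298 with 60 or more reads passed (DESeq2 Wald test). Kcnc2 and Kcne4 rose, 2 of 60 (3.33%) against a background of 7.74% of all genes tested and 8.2% of those with 60 or more reads. Kcne1l, Kcnf1, Kcnt1, Kcnd2, Kcnj5, Kcns1, Kcna6, Kcnh2 and Kcnd3 fell, 9 of 60 (15%) against 7.18% and 7.63%. Kcns1 had 60 reads only through Control and could only be lower, and without it 8 of 59 fell (13.6%). At 2-fold or more, Kcne4 was the 1 higher gene (background 4.41%) and the same 9 genes were lower (4.46%). Among genes with 60 or more reads these backgrounds were 4.61% and 4.69%. The stricter quasi-likelihood test of edgeR passed 6 of the 11, Kcns1 included, all lower (Kcne1l, Kcnf1, Kcnt1, Kcnd2, Kcnj5 and Kcns1), against 6.02% of the 15308 genes it tested (2.8% lower and 3.22% higher). It passed 0 higher channel genes, with 4 higher at an unadjusted p under 0.05, a threshold at which the share of all genes was not counted. The median log2 fold change (knockout over Control) of the 60 was -0.29, beside 0.0088 for all genes with 60 or more reads. Of the 60 values 34 were negative, and the median and this count include Kcns1. Without Control replicate 1 and knockout replicate 3, the libraries with the highest adrenal sums, 5 of the 60 passed in DESeq2, where 4.20% of all genes did. Whether the genes as a list differ from other genes was not tested.

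**Figure D1:**
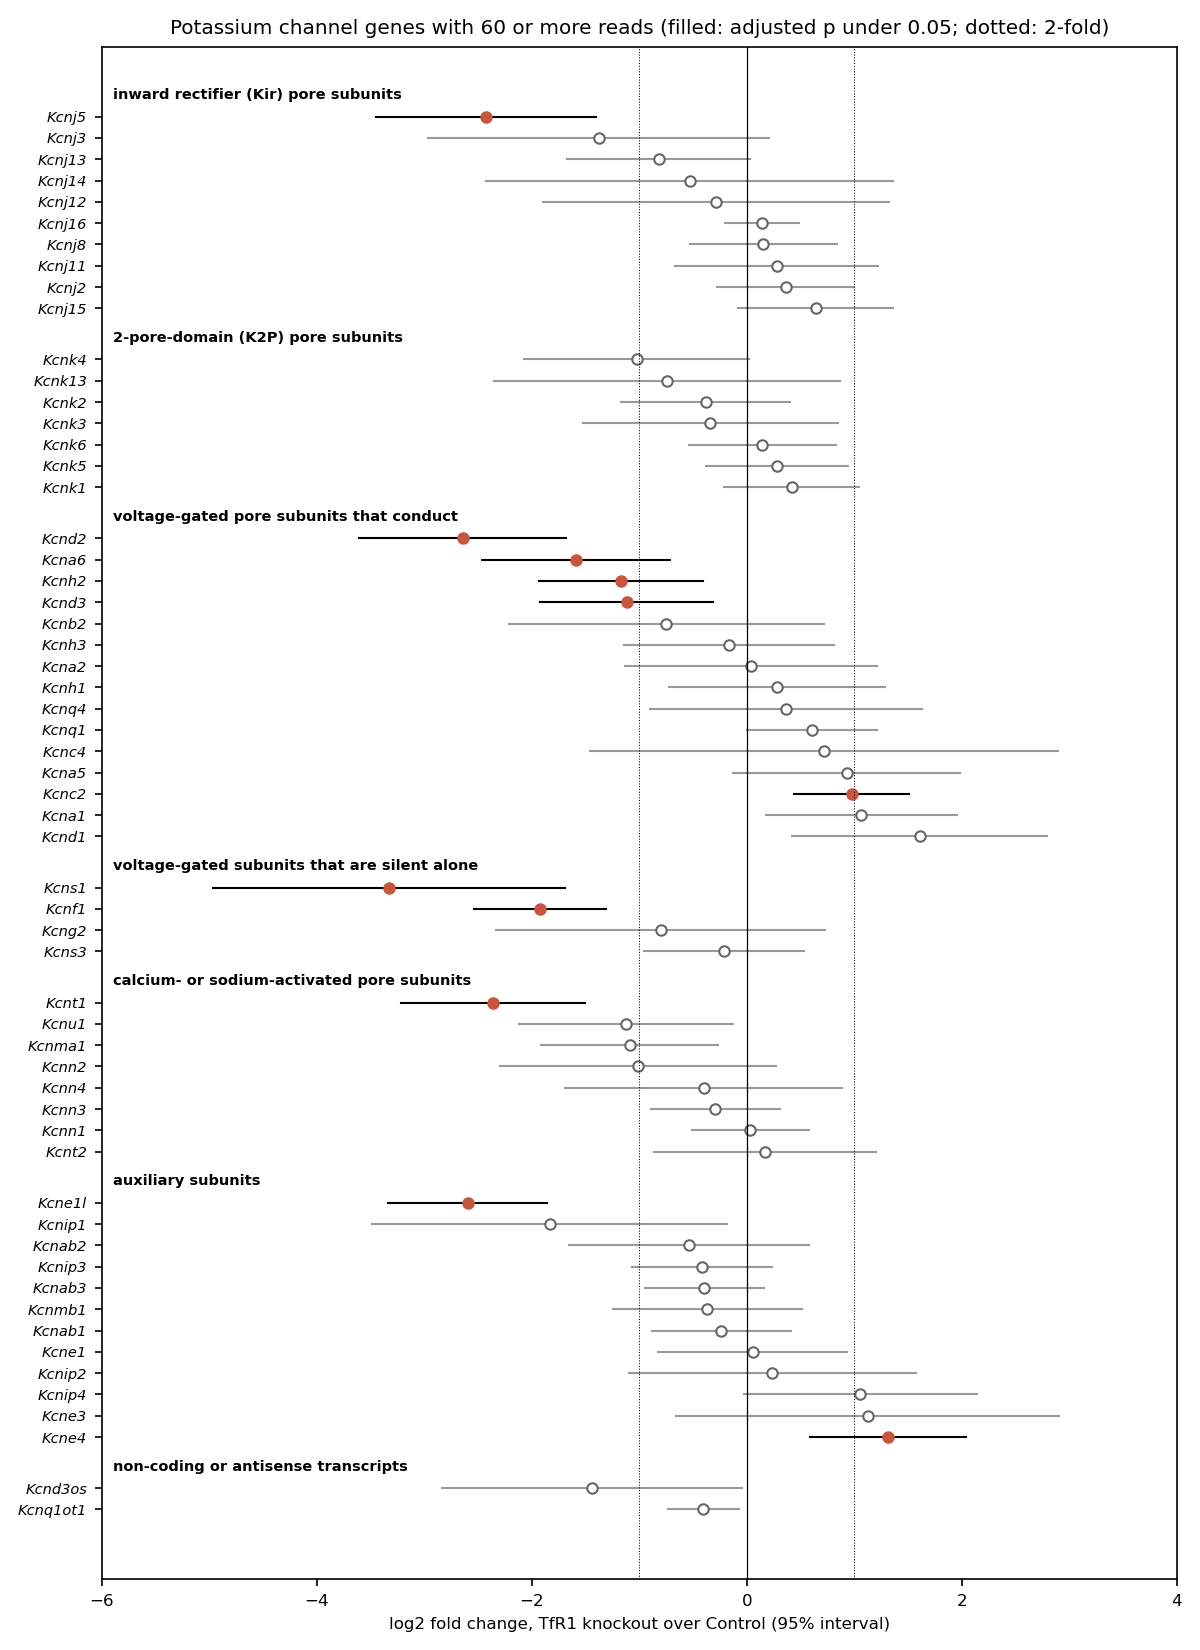
Log2 fold change (horizontal axis, TfR1 knockout over Control) of 58 of the 60 potassium channel genes with 60 or more reads, grouped by role. Points are DESeq2 estimates, lines are 95% intervals, filled points mark the 11 genes with an adjusted p under 0.05 and dotted lines mark 2-fold. Of the filled points, 9 lie left of 0 and 2 lie right of it.

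The groups did not overlap for 21 of the 60 genes. Every knockout library stood above every Control library for 5 (8.33%) and below for 16 (26.7%). Of all genes tested 16.9% fell in each direction, and of those with 60 or more reads 17.3% stood above and 17.2% below. The 16 include Kcns1, which could only be lower. All 11 genes that passed were among the 21. Of the 49 genes that did not pass, 12 had a 95% interval within 2-fold either way, among them Kcnj16, Kcnj8, Kcnk5, Kcne1 and Kcnq1ot1. For the other 37 a 2-fold difference lay within the interval. At an unadjusted p under 0.05 the DESeq2 count was 20, among them Kcna1, Kcnd1, Kcnd3os, Kcnip1, Kcnma1, Kcnq1, Kcnq1ot1 and Kcnu1 beside the 11. The share of all genes under that unadjusted threshold was not counted, so the 20 cannot be set against a background. Kcna1, which encodes Kv1.1, had 22.3, 14.5 and 18.3 normalized counts in Control and 47.7, 34.5 and 33.1 in knockout libraries, with no overlap (log2 fold change 1.06, DESeq2 adjusted p 0.0945). Kcnu1, a relative of Kcnma1 known from sperm, had 23.1, 28.2 and 31.2 against 14.9, 11.5 and 11.3, also with no overlap (log2 fold change -1.12, DESeq2 adjusted p 0.125).

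Sequence is shown for the 3 genes that passed under every one of the 15 alternative settings (Kcne1l, Kcnf1 and Kcnj5), and for Kcne4, a gene that rose. Each line is the 250 bases before the RefSeq transcription start, on the gene's own strand, in build GRCm38.p6, with CACGTG in capitals. CACGTG is the E-box hexamer, and it holds on both strands the 5 letters ACGTG. This is 1 of the forms of the core bound by hypoxia-inducible factors, and the other is GCGTG. The windows are chrX:142306199-142306448 (minus strand) for Kcne1l, chr12:17176889-17177138 (minus) for Kcnf1, chr9:32344345-32344594 (minus) for Kcnj5 and chr1:78816661-78816910 (plus) for Kcne4.
Kcne1l: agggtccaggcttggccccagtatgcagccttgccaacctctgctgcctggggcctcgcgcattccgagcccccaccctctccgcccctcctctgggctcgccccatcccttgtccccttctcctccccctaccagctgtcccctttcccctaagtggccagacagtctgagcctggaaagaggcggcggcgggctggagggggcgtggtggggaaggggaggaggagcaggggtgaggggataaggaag
Kcnf1: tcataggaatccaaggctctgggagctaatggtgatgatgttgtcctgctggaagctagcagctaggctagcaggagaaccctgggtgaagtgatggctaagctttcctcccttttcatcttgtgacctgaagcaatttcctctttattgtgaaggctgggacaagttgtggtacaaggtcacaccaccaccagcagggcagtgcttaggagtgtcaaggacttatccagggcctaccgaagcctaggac
Kcnj5: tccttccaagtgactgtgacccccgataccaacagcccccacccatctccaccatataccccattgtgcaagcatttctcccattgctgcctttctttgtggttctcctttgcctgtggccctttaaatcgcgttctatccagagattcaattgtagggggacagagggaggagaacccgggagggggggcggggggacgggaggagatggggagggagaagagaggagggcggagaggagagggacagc
Kcne4: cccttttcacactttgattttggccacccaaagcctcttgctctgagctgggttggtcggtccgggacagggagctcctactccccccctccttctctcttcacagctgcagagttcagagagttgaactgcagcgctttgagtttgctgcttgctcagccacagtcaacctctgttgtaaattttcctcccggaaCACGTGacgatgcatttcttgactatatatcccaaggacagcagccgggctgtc
The first 3 windows hold no ACGTG on either strand, and the Kcne1l window holds 1 GCGTG. That form was found in 14 of the 63 channel gene windows (22.2%) and in 28.2% of all. The Kcne4 window holds 1 CACGTG, whose overlapping ACGTG matches lie 54 and 53 bases before the start. On either strand, ACGTG was found in 11 of the 63 windows of 42 channel genes (17.5%) and in 16.6% of all 32851 windows, and CACGTG in 5 of the 63 (7.94%) and in 6.02% of all. Among the 10 passing genes with a window, ACGTG was found for Kcna6 and Kcne4. TATAAA, the TATA box hexamer, was in 2 of the 63 windows (3.17%), none of them of a passing gene, and in 12.4% of all. A match describes letters only and shows no bound factor.

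The inward rectifiers had 13 genes in the tables and 10 with 60 or more reads, and these 10 held 59.7% of the reads of all 95 channel genes. Kcnj5 encodes Kir3.4, a subunit of the channel opened by G proteins, and was the Kir gene that passed. It lies on chromosome 9, 32122368 to 32151822 (mm9, minus strand). It had 129, 155 and 190 normalized counts in Control replicates 1 to 3 and 44.7, 7.68 and 35 in knockout replicates 1 to 3. Every knockout library was far below the lowest Control library, and knockout replicate 2 was the lowest. Kcnj5 fell by 2.42 on the log2 scale (SE 0.52, DESeq2 adjusted p 1.0e-04, edgeR adjusted p 0.0458), and without knockout replicate 2 the change was -1.98. Kcnj5 is also known from the adrenal cortex. Control replicate 1, with the highest adrenal sum, was the lowest Control library for it, and any adrenal part in its values was not tested. Kcnj3 encodes the partner subunit Kir3.1 and did not pass (log2 fold change -1.38, DESeq2 adjusted p 0.264). It had 22.3, 9.998 and 8.61 against 6.96, 5.12 and 3.78, highest in Control replicate 1. The exons of Kcnj3 share 1621 bases with Gm17595 on the opposite strand, so the source of its reads is uncertain.

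Kcnj16 and Kcnj15 were the most abundant Kir genes and did not pass. Kcnj16 encodes Kir5.1, which is silent alone and forms the basolateral K+ channel of the distal tubule with Kir4.1. It had 8505, 9530 and 7164 normalized counts in Control and 8926, 10200 and 8703 in knockout libraries, so the groups overlapped within a narrow span. Its log2 fold change was 0.14 (95% interval -0.20 to 0.49, DESeq2 adjusted p 0.647). Kcnj15 encodes Kir4.2, a basolateral channel of the proximal tubule, and had 6260, 6596 and 4179 in Control against 5906, 14200 and 6444. Knockout replicate 2 alone lay above the rest, and the log2 fold change of 0.64 (DESeq2 adjusted p 0.25) was 0.12 without it. Kcnj8 encodes Kir6.1, the ATP-sensitive channel of vascular wall cells. Its values were 270, 349 and 664 in Control and 457, 441 and 528 in knockout libraries, with the group ranges overlapping (log2 fold change 0.15, DESeq2 adjusted p 0.82).

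The choice of symbols left out Kcnj10, a pore partner of Kcnj16, and Kcnj1, and both are given here for comparison. Kcnj10, which encodes Kir4.1, had 2699, 3106 and 1196 normalized counts in Control and 1035, 944 and 798 in knockout libraries and fell (log2 fold change -1.33, DESeq2 adjusted p 0.00213, edgeR adjusted p 0.0566). Kcnj1, the secretory channel ROMK, had 5142, 5835 and 3001 against 1712, 1720 and 1722 and fell as well (-1.44, DESeq2 adjusted p 3.4e-06, edgeR adjusted p 0.0192). Per kilobase of annotated exon, the level of Kcnj16 over that of Kcnj10 was 4.33, 4.21 and 8.23 in Control and 11.8, 14.8 and 14.97 in knockout libraries. The ratio was higher in every knockout library, with geometric means of 5.32 and 13.8, and an exact two-sided permutation test gave p 0.1, the smallest that 3 against 3 allows (0.15 adjusted over the 3 ratios examined).

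The fall of Kcnj1 and Kcnj10 stood beside lower thick ascending limb and distal convoluted tubule markers. All 7 thick limb markers fell (5 in edgeR), and their sum was 48590 to 113600 in Control and 13300 to 25580 in knockout libraries. Of 5 distal convoluted tubule markers 3 fell (3 in edgeR), with sums of 25120 to 44330 and 13750 to 19730. Of 8 principal cell markers, which belong to the collecting duct, 4 rose (2 in edgeR), with sums of 11970 to 20220 and 39200 to 68030, and 7 of 10 macrophage markers rose (6 in edgeR), with sums of 2748 to 4485 and 7992 to 10070. None of these markers was at 0 in any library. Their part in the results for the channel genes was not tested, and in whole kidney RNA fewer cells of a type and less RNA per cell cannot be told apart.

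The K2P genes, which carry leak currents, had 7 of 14 members with 60 or more reads, 15% of the reads, and none passed (at an unadjusted p under 0.05, 0 in DESeq2 and 1 in edgeR; log2 fold changes -1.02 to 0.42). Kcnk1 encodes TWIK-1 and had 2467, 2731 and 1366 normalized counts in Control and 2200, 3813 and 2757 in knockout libraries. The groups overlapped, with Control replicate 3 the lowest (log2 fold change 0.42, SE 0.32, DESeq2 adjusted p 0.42). Kcnk5 encodes TASK-2, a channel of proximal tubule cells, and had 926, 913 and 474 against 1123, 1053 and 638. Its groups overlapped too, and its log2 fold change was 0.28 (DESeq2 adjusted p 0.632).

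Kcnk3, which encodes TASK-1 and is known from the adrenal cortex, was highest in Control replicate 1, the library with the highest adrenal sum. It had 1069, 271 and 198 normalized counts in Control and 495, 198 and 524 in knockout libraries. Control replicate 1 lay far above the other Control libraries. Knockout replicate 1, with the lowest adrenal sum of all, was close to knockout replicate 3, whose adrenal sum was the highest of its group. The log2 fold change of -0.34 (DESeq2 adjusted p 0.771) became 0.56 without Control replicate 1 and knockout replicate 3 (DESeq2 adjusted p 0.774). Kcnk9, which encodes the related TASK-3, had 42 reads in Control replicate 1, 3 in knockout replicate 3 and none in the other libraries. Kcnn2 had 85.7 normalized counts in Control replicate 1 and 17.2 to 32.7 elsewhere, with 29.8 in knockout replicate 1 and 19.9 in knockout replicate 3. Its log2 fold change of -1.01 was -0.067 without Control replicate 1 and knockout replicate 3. The part of adrenal RNA in the values of Kcnk3, Kcnk9 and Kcnn2 was not tested.

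**Figure D2:**
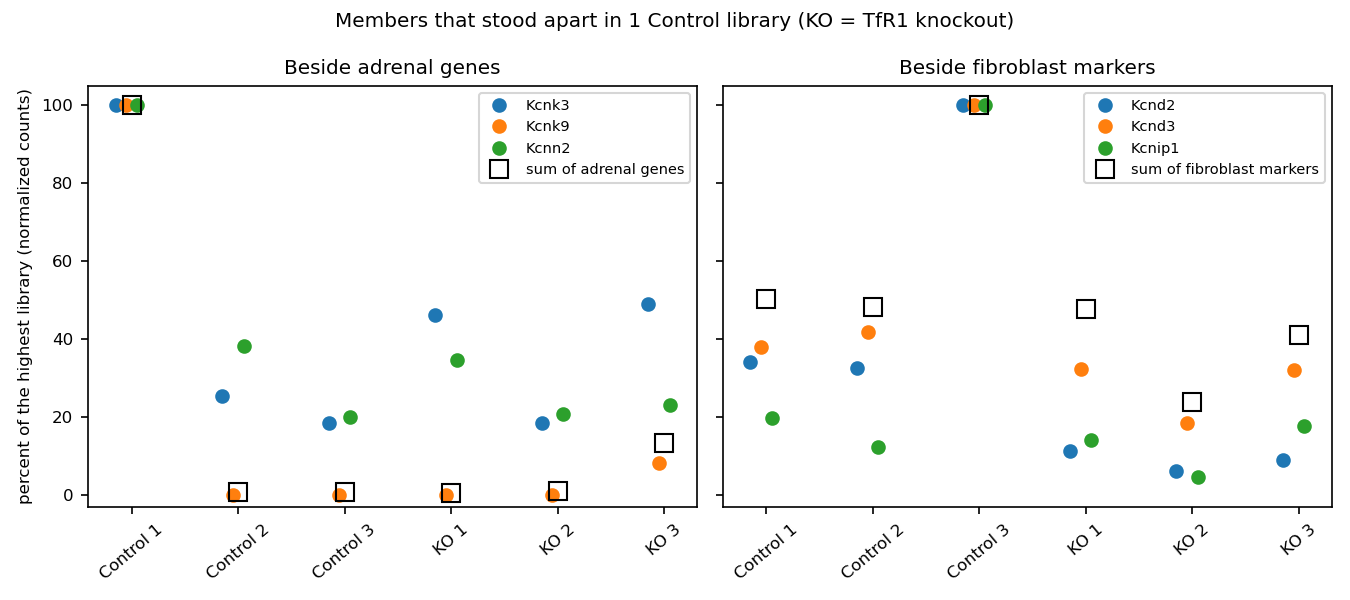
Normalized counts as a percent of the highest library (vertical axis) in each of the 6 libraries (horizontal axis), for genes that stood apart in 1 Control library, beside the summed adrenal genes (left) and the summed fibroblast markers (right, open squares for sums). Kcnk3, Kcnk9 and Kcnn2 peak in Control replicate 1 with the adrenal sum, and Kcnd2, Kcnd3 and Kcnip1 peak in Control replicate 3 with the fibroblast sum.

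Among Kv pore subunits that conduct, 17 of 30 had 60 or more reads. Kcnd2, Kcna6, Kcnh2 and Kcnd3 fell, Kcnc2 rose and 12 did not pass. Kcnd2 (chromosome 6, 21165503 to 21679805, plus strand) encodes Kv4.2, a fast inactivating channel. It had 206, 196 and 604 normalized counts in Control and 68.6, 37.1 and 54.9 in knockout libraries. All knockout libraries lay below the lowest Control library, and Control replicate 3 lay far above the other Control libraries. Kcnd2 fell by 2.64 on the log2 scale (SE 0.49, DESeq2 adjusted p 3.8e-06, edgeR adjusted p 0.031), and did not pass in limma-voom (adjusted p 0.0556). Without Control replicate 3 it still passed, at -1.91 (DESeq2 adjusted p 5.4e-06).

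Kcnd3 (chromosome 3, 105255248 to 105476920, plus strand) encodes Kv4.3 and had 838, 924 and 2204 normalized counts in Control against 712, 409 and 708. The groups did not overlap, yet the closest libraries lay near each other. Kcnd3 fell by 1.12 on the log2 scale (SE 0.41, DESeq2 adjusted p 0.0451), did not pass in edgeR (adjusted p 0.138), and without Control replicate 3 was at -0.53 with a DESeq2 adjusted p of 0.238. It also missed the threshold without knockout replicate 2 (0.184) or 3 (0.0885, both DESeq2 adjusted p). Its exons overlap 165 bases of a gene on the opposite strand, 1700095B22Rik, and reads of the pair cannot be told apart without strand. Per kilobase, the level of Kcnd3 over that of Kcnd2 was 2.19, 2.53 and 1.96 in Control and 5.58, 5.93 and 6.93 in knockout libraries. The ratio was higher in every knockout library, with an exact two-sided permutation p of 0.1, the smallest possible (0.15 adjusted over the 3 ratios).

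The auxiliary subunit Kcnip1, which binds Kv4 pores, shared the high value of Control replicate 3. It had 26.4, 16.4 and 134 normalized counts in Control and 18.9, 6.40 and 23.7 in knockout libraries and did not pass (log2 fold change -1.83, DESeq2 adjusted p 0.129). Kcnd3os, a transcript named as antisense to Kcnd3, had 13.2, 20.9 and 53.8 against 13.9, 7.68 and 10.4 and did not pass either (DESeq2 adjusted p 0.166). The third Kv4 pore gene, Kcnd1, had a positive log2 fold change. It had 66.0, 66.3 and 98.0 against 70.6, 477 and 155, with knockout replicate 2 far above the rest. Its log2 fold change of 1.61 missed the threshold (DESeq2 adjusted p 0.0517) and was 0.57 without that library, while it passed without knockout replicate 1 (2.04, DESeq2 adjusted p 8.0e-04). The fibroblast sum was highest in the library where Kcnd2, Kcnd3 and Kcnip1 were highest, and its part in their values was not tested.

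Kcna6 (chromosome 6, 126658347 to 126690680, minus strand) encodes Kv1.6, a delayed rectifier subunit. It had 206, 198 and 231 normalized counts in Control and 106, 26.9 and 77.6 in knockout libraries. The Control values lay close together and all knockout libraries lay lower, replicate 2 lowest. Kcna6 fell by 1.58 on the log2 scale (SE 0.45, DESeq2 adjusted p 0.00528), while edgeR gave an adjusted p of 0.0825. Its exons share 2343 bases with Gm17456 on the opposite strand, so the source of its reads is uncertain.

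Kcnh2 (chromosome 5, 23825407 to 23857422, minus strand) encodes the channel known as ERG, which repolarizes heart muscle cells. It had 261, 233 and 377 normalized counts in Control and 155, 65.2 and 165 in knockout libraries. The groups did not overlap, with Control replicate 3 highest and knockout replicate 2 lowest. Kcnh2 fell by 1.17 on the log2 scale (SE 0.39, DESeq2 adjusted p 0.0234, edgeR adjusted p 0.11). It did not pass without Control replicate 1 (DESeq2 adjusted p 0.0853) or without Control replicate 3 (0.134).

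Kcnc2 (chromosome 10, 111708179 to 111903360, plus strand) encodes Kv3.2, a fast delayed rectifier, and was the Kv gene that rose. It had 120, 112 and 168 normalized counts in Control and 217, 307 and 260 in knockout libraries. Every knockout library lay above the highest Control library. Its log2 fold change was 0.98 (SE 0.27, DESeq2 adjusted p 0.00465, edgeR adjusted p 0.0655), and it did not pass without Control replicate 1, Control replicate 2 or knockout replicate 3 (DESeq2 adjusted p 0.0894, 0.0894 and 0.0525).

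**Figure D3:**
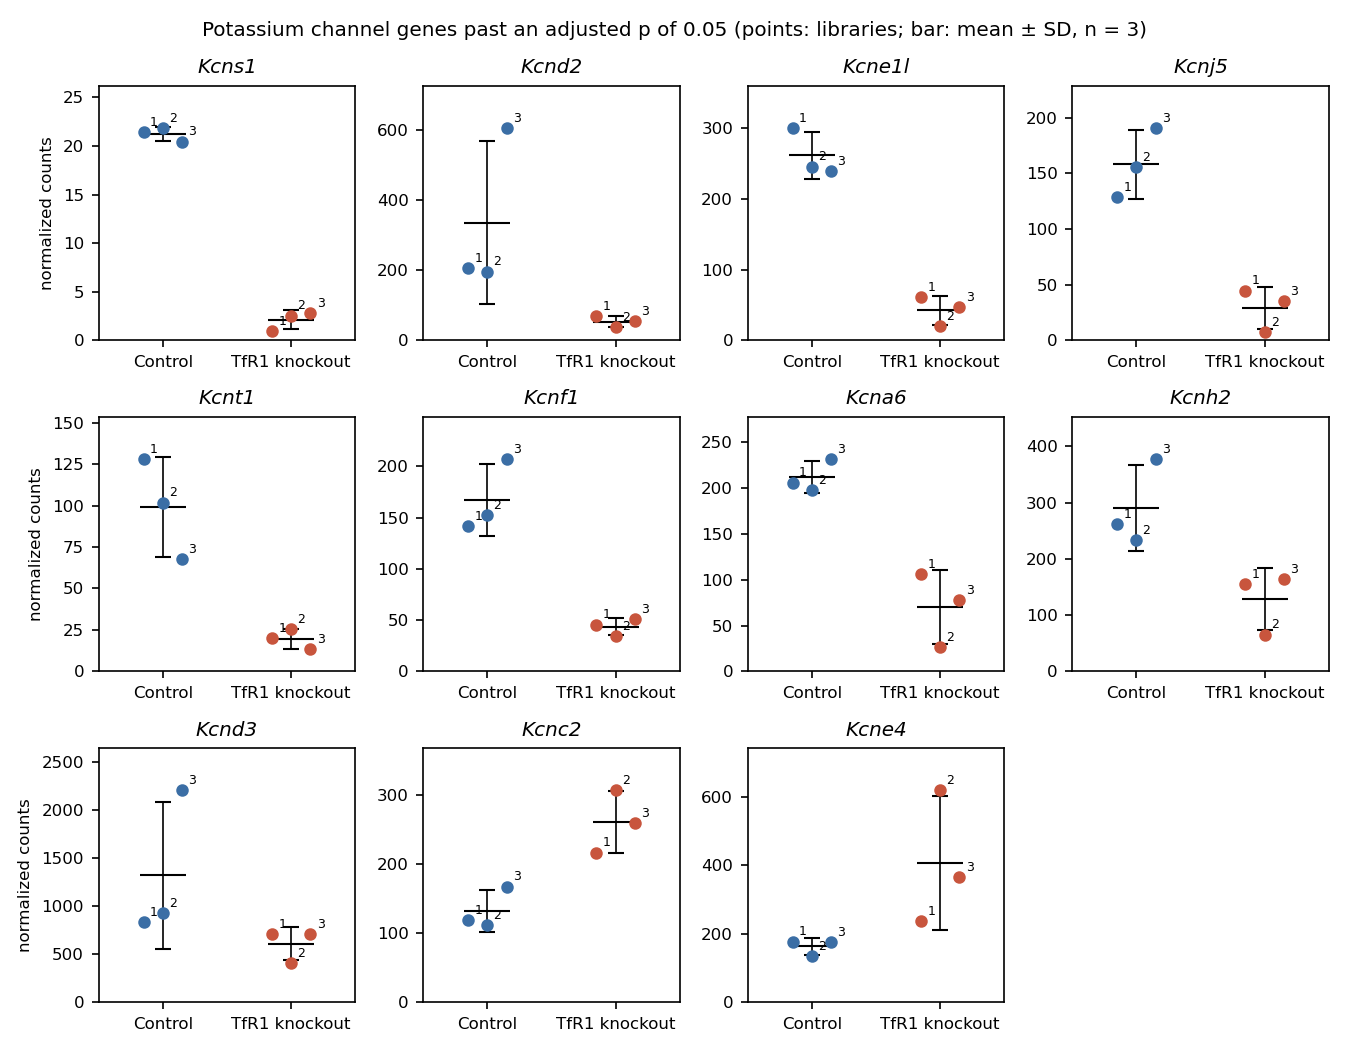
Normalized counts (vertical axes, each from 0) of the 11 potassium channel genes with a DESeq2 adjusted p under 0.05, in 3 Control and 3 TfR1 knockout libraries. Numbered points are replicates, and bars show the mean with its SD (n = 3). In every panel the groups do not overlap. Control replicate 3 stands apart for Kcnd2 and Kcnd3, and knockout replicate 2 is the highest for Kcne4.

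Kcnq1 and Kcne1 encode the pore and the auxiliary subunit of a channel known from the luminal membrane of the proximal tubule. Kcnq1 had 857, 933 and 452 normalized counts in Control and 1370, 1062 and 984 in knockout libraries. The groups did not overlap, but the log2 fold change of 0.61 did not pass (SE 0.31, DESeq2 adjusted p 0.182). Kcne1 had 613, 704 and 272 against 883, 338 and 432, with overlapping groups and a log2 fold change of 0.057 (DESeq2 adjusted p 0.955). The level of Kcne1 over that of Kcnq1, per kilobase, was 0.69, 0.73 and 0.58 in Control and 0.62, 0.31 and 0.42 in knockout libraries. These ratios overlapped (exact two-sided permutation p 0.2, also 0.2 adjusted over the 3 ratios). Kcnq1ot1, the long non-coding RNA that runs antisense through the Kcnq1 locus, had 547, 543 and 587 against 459, 430 and 378. Its groups did not overlap, but it did not pass (log2 fold change -0.40, DESeq2 adjusted p 0.0906).

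Of the silent subunits, which form no channel alone, 4 of 10 had 60 or more reads, and Kcnf1 and Kcns1 fell.

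Kcnf1 (chromosome 12, 17178908 to 17183694, minus strand, 1 exon) encodes Kv5.1, a modifier of other Kv channels. It had 142, 153 and 207 normalized counts in Control and 45.7, 34.5 and 51.1 in knockout libraries. The knockout values lay close together and well below every Control library. Kcnf1 fell by 1.92 on the log2 scale (SE 0.31, DESeq2 adjusted p 6.5e-08, edgeR adjusted p 0.014).

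Kcns1 (chromosome 2, 163989355 to 163996849, minus strand) encodes Kv9.1, another such modifier. It had 26, 24 and 19 reads in Control and 1, 2 and 3 in knockout libraries. It reached 60 reads only through Control, where it had 69 reads against 6, so among the genes given a fold change it could only be lower. After size factors, Control was 10.1-fold above the knockout, with a 95% interval of 4.41 to 28.4 from an exact binomial that covers counting error only (DESeq2 adjusted p 0.00128, edgeR adjusted p 0.0131).

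All 8 genes grouped with the calcium- or sodium-activated channels, Kcnu1 by its kinship with Kcnma1, had 60 or more reads. Together they held only 1.72% of the reads. Kcnt1 (chromosome 2, 25719315 to 25773793, plus strand), which encodes the sodium-activated channel Slack, fell. It had 128, 102 and 67.8 normalized counts in Control and 19.9, 25.6 and 13.2 in knockout libraries. The lowest Control library was well above the highest knockout library. Kcnt1 fell by 2.36 on the log2 scale (SE 0.43, DESeq2 adjusted p 2.8e-06, edgeR adjusted p 0.0192). Kcnma1, the pore of the large-conductance calcium-activated channel known for flow-driven K+ secretion, had 158, 68.2 and 150 against 74.6, 44.8 and 56.8. Its groups overlapped through Control replicate 2, and it missed the threshold (log2 fold change -1.09, DESeq2 adjusted p 0.0581). Without Control replicate 2 it passed at -1.39 (DESeq2 adjusted p 0.00771), and it passed without knockout replicate 1. With any other library left out Kcnma1 did not pass, nor did it in edgeR (adjusted p 0.135) or limma-voom (adjusted p 0.18).

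Of 16 auxiliary subunits, 12 had 60 or more reads, and 1 fell and 1 rose. Kcne1l (chromosome X, 138739295 to 138740837, minus strand, 1 exon), also known as Kcne5, encodes a small membrane protein that dampens Kcnq1 channels. It had 299, 245 and 239 normalized counts in Control and 60.7, 20.5 and 47.3 in knockout libraries. Control values were close together, and every knockout library was far lower. Kcne1l fell by 2.60 on the log2 scale (SE 0.38), with the smallest DESeq2 adjusted p of the 60 genes (7.0e-10, edgeR adjusted p 0.0144). Its level per kilobase ranked 7 among the channel genes in Control and 23 in the knockout.

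Kcne4 (chromosome 1, 78813502 to 78816599, plus strand) encodes a relative that inhibits Kcnq1 and some Kv1 channels. It had 177, 135 and 177 normalized counts in Control and 237, 618 and 364 in knockout libraries. The groups did not overlap, and the knockout values were widely spread. Kcne4 rose, with a log2 fold change of 1.32 (SE 0.37, DESeq2 adjusted p 0.00518, edgeR adjusted p 0.0708), and did not pass without Control replicate 2 (DESeq2 adjusted p 0.0647). Its upstream window, printed above, is the 1 of the 4 with a CACGTG, and whether a factor binds there was not measured.

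By level per length, the channel genes were led by genes that did not pass. Among the highest, mean normalized counts per kilobase of exon were 2245 for Kcnj16, 1111 for Kcnk1, 1082 for Kcnj15, 306 for Kcnq1, 254 for Kcnk5, 206 for Kcnj8, 169 for Kcne1 and 121 for Kcnk3. Kcne4, at 115 over both groups, was the highest of those that passed. In Control alone Kcne1l (169) and Kcnd3 (138) lay above Kcne4 (65.7), and in the knockout Kcne4 (164) lay above Kcne1l (27.7) and Kcnd3 (63.6). Kcnj16 lay above Kcnk1 and Kcnj15 in all 6 libraries, while Kcnk1 and Kcnj15 overlapped, as did Kcnq1 and Kcnk5. The 3 leading genes took 54.1% to 74.9% of the reads of all 95 channel genes, lowest in Control replicate 3 and highest in knockout replicate 2.

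**Figure D4:**
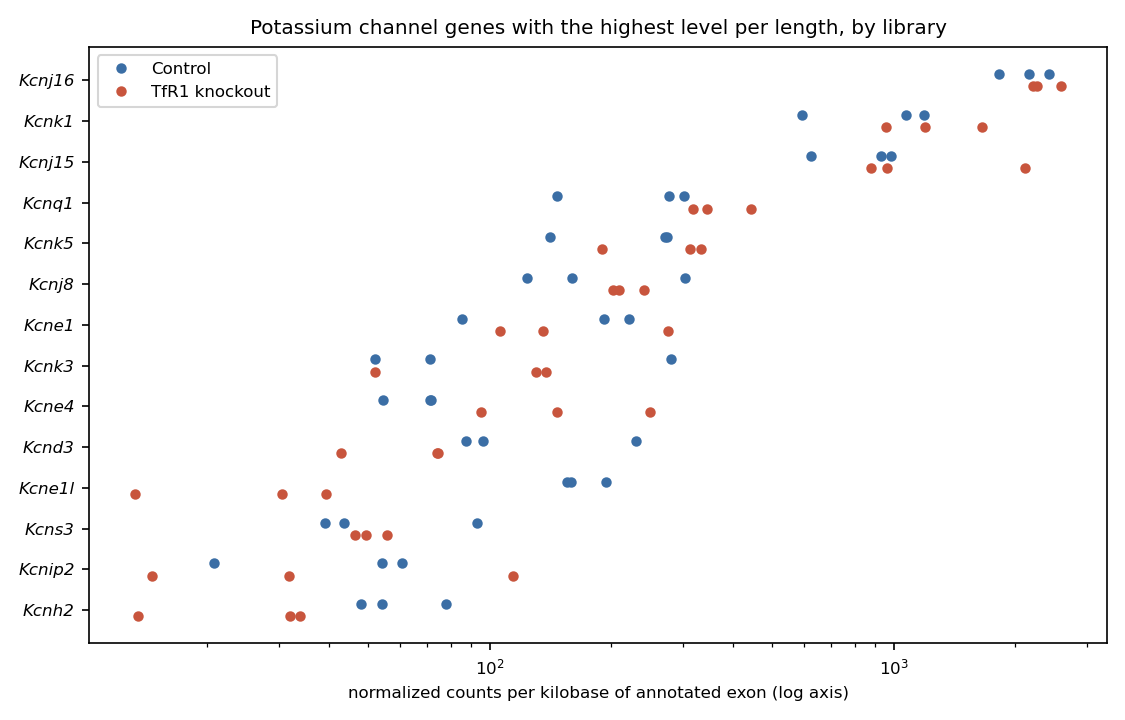
Normalized counts per kilobase of annotated exon (horizontal log axis) for 14 of the 16 channel genes with the highest mean level, 1 point per library, blue for Control and red for TfR1 knockout. Kcnj16, Kcnk1 and Kcnj15 stand above the others in both groups, and the Kcne1l points of the groups are separate (155 to 194 in Control, 13.3 to 39.3 in the knockout).

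Of 28 other genes of K+ handling, listed with earlier results known, 3 rose and 9 fell in DESeq2 (background 7.74% and 7.18%, median log2 fold change 0.11), and edgeR passed 1 and 6 of them. The 9 include Kcnj1 and Kcnj10, given above, and Slc12a1 and Slc12a3, which are also on the thick limb and distal convoluted tubule lists. Slc12a2, the basolateral Na-K-2Cl cotransporter, rose (log2 fold change 0.95, DESeq2 adjusted p 5.0e-04). Wnk1, a kinase that regulates distal salt transport, fell (-1.09, DESeq2 adjusted p 3.2e-04), as did Bsnd, the subunit of the ClC-K chloride channels that work beside Kir4.1 and Kir5.1 (-1.07, DESeq2 adjusted p 6.8e-04).

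The other 35 channel genes stayed under 60 reads, from 59 for Kcng4 down to 0 for Kcna10, Kcnk15, Kcnk16, Kcnmb4os1 and Kcnv1. Kcnh4 had 9, 7 and 6 reads in Control and 1, 0 and 0 in knockout libraries, and Kcnv2 had 9, 8 and 14 against 4, 0 and 1. Neither passed (DESeq2 adjusted p 0.0618 and 0.138, unadjusted p 0.00998 and 0.0325). Kcnc1 lay the other way, with 6, 4 and 2 reads in Control and 11, 6 and 21 in knockout libraries. It did not pass either (DESeq2 adjusted p 0.141, unadjusted p 0.0336).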

How the data were processed

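Per the labels, total RNA from 6 kidneys was made into Illumina TruSeq RNA libraries. The submitters' notes name CASAVA 1.8.2, Trimmomatic, TopHat2 2.0.11, HTSeq and mm9. The authors kept uniquely aligned reads and deposited raw read counts per gene with no normalization. Whether counting used strand is not given in the sources used here. Labels call Controls wild type, and groups and replicate numbers follow them.

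DESeq2 1.42.0 (R 4.3.3; Wald test, median-ratio size factors, Benjamini-Hochberg adjustment over all genes tested, no covariate) compared knockout with Control. Independent filtering left 16509 genes, with a lowest mean of 3.51. edgeR 4.0.16 and limma 3.58.1 (voom) were run beside it, and the code was tested on simulated data. Gene positions and exon lengths are from the GENCODE annotation of mm9 (91 of 95 members matched by symbol). Promoter sequences are RefSeq's (GRCm38.p6) and were not joined to mm9 coordinates.

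Members and lists were chosen with earlier results of these data known. Values in every library are printed for members that passed and for the 10 with the highest level per kilobase, except for a few items that are not reported here. Other members and genes given values (partners, genes moving with the adrenal or fibroblast sums, or close to the threshold) were picked after their values were seen, as were the adrenal list and the fit without the 2 libraries high in it. The other marker lists gave, of genes tested, 1 higher and 2 lower of 12 proximal tubule, 1 and 2 of 7 intercalated cell, 1 and 0 of 6 podocyte, 1 and 0 of 7 endothelium, 0 and 1 of 8 lymphocyte, 0 and 1 of 8 smooth muscle, 0 and 2 of 6 fibroblast and 0 and 0 of 8 neuron markers. Alternatives were the other tests, TMM and total-count scaling, other filters, a replicate block, and leaving out libraries.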

Additional observations from a re-analysis of the deposited data

How the results depend on the processing

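The median log2 fold change of the 60 channel genes stayed negative under all 15 alternatives, between -0.39 and -0.11. With total-count scaling the median of all genes tested was -0.097, against 0.0071. The count of lower genes (9) was 5 with limma-voom, also at 2-fold, and 7 to 10 with each library left out. It was 5, also at 2-fold, without the 2 libraries with the highest adrenal sums, called the adrenal libraries here. The count of higher genes (2; 1 at 2-fold) was 0 with edgeR, with limma-voom (4 and 3 at an unadjusted p under 0.05) and without the adrenal libraries, and 0 to 4 with each library left out, also at 2-fold. The 5 genes that passed without the adrenal libraries were Kcne1l, Kcnf1, Kcnj5, Kcnd2 and Kcnd3. The fit then has 4 libraries, and 4.20% of all genes passed. In it Kcnt1 was at -1.91 (DESeq2 adjusted p 0.099), Kcns1 at 0.189, Kcna6 at 0.103, Kcne4 at 0.0816, Kcnh2 at 0.0958 and Kcnc2 at 0.406. Signs turned for genes that did not pass: Kcne1 was -0.0072 with total-count scaling, -0.26 without Control replicate 3 and -0.46 to 0.31 with each library left out, Kcnj8 was -0.095 without Control replicate 1 (up to 0.62 without Control replicate 3) and -0.18 without the adrenal libraries, and Kcnk3 was 0.79 (down to -0.73 without Control replicate 3) and 0.56. The cause was not tested. For pairing, log2 levels were taken as deviations from the mean of each library's own group. These deviations correlated at 0.0184, 0.0452 and 0.19 between same-numbered samples, and at -0.183 to 0.0748 between the others. The numbers were not taken as pairs. With a replicate block 12 genes passed (3 higher, 9 lower), 11 of them shared with the fit without it, where 13.4% of all genes passed with the block. With 3 libraries per group, 37 genes had intervals that reach 2-fold.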
